A study of Mus musculus with 11 samples.

Results

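The Nr4a orphan nuclear receptors Nr4a1 (Nur77), Nr4a2 (Nurr1) and Nr4a3 (Nor1) were examined in chromatin accessibility maps of embryonic mouse neurons. The 3 genes were taken by name out of the 22367 protein-coding genes of the annotation, and every peak region that overlapped a gene body extended by 100 kb on each side was kept, which gave 46 of the 131942 regions. Nr4a proteins are transcription factors of the nuclear receptor superfamily without a known physiological ligand, and they bind a short DNA element called NBRE as monomers. In many cell types they are immediate early genes, transcribed within minutes of a calcium or cAMP signal through CREB and MEF2 factors. Nr4a2 is in addition expressed lastingly in midbrain dopaminergic neurons, which fail to acquire their transmitter phenotype without it.

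The study set dopaminergic (DA) against serotonergic (5-HT) neurons by ATAC-seq, in which a transposase cuts accessible DNA, so that a peak marks open chromatin. The DA group comprised 3 libraries of GFP-positive cells sorted from the ventral mesencephalon of TH-GFP embryos, whose line was kept on a C57BL/6J background and carries GFP driven by the rat Th promoter. The 5-HT group comprised 2 libraries of YFP-positive cells sorted from the anterior hindbrain of Mash1-CRE x ROSA YFP embryos, in which Cre under Mash1, a proneural gene of progenitors that give rise to several neuron types, switches on YFP. All embryos were taken at 14.5 days, had Swiss wild-type mothers and were pooled before sorting. Per the methods of the study, fewer sorted cells entered the 5-HT than the DA libraries. Neuron type, reporter line, brain region and cell input therefore varied together between the groups and cannot be told apart. RNA-seq samples of both groups, 3 each, were not analysed here.

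Each library gave a score for the same set of regions, 0 meaning that no peak was called there. The scale of the score was not given in the sources used here and the read depth is unknown. The number of regions with a peak was 52861, 93055 and 94351 in the DA libraries and 38772 and 22879 in the 5-HT libraries, so every DA library held more peaks than either 5-HT library. Because scores were not placed on a common scale, a region was also described by its percentile, the rank of its score among all peaks of the same library, with 100 for the highest and 0 for no peak. As a library with many weak peaks raises the percentile of a given region, comparisons between neuron types were repeated after only the 22879 best-scoring peaks of every library were kept, as many as the smallest library had. A promoter region overlapped the stretch from 1 kb upstream to 100 bp downstream of any annotated transcription start site (TSS), and all other regions are called distal. With 3 libraries against 2, the exact two-sided permutation test used for all comparisons of neuron types cannot give p below 0.2.

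Markers of the sorted cells were looked at first. Peaks were present at the promoters of 6, 6 and 6 of 6 dopaminergic marker genes in DA and of 3 and 3 in 5-HT, with summed scores of 43.9, 46.3 and 39.0 against 12.5 and 9.12, which are given as deposited and not on a common scale. Of all protein-coding genes 57.8% had a promoter peak in the 3 DA libraries and 47.5% in both 5-HT libraries. Only 1 of the 6, Th, had its promoter peak in every DA and no 5-HT library at equal numbers of peaks. The promoter of Th, tyrosine hydroxylase, scored 9.91, 10.6 and 8.45 in the DA libraries and was without a peak in both 5-HT libraries. The dopaminergic marker with the highest score in each DA library and in 5-HT replicate 1 was Pitx3, at 11.0, 11.9 and 9.28 in DA and 4.97 and 2.96 in 5-HT. Serotonergic markers did not separate the groups in this way: of 6 promoters, 4, 5 and 4 were accessible in DA and 5 and 3 in 5-HT, with summed scores of 28.4, 29.7 and 27.1 against 25.5 and 15.1. The promoter of Fev, which encodes the serotonergic factor Pet1, had a peak in 5-HT replicate 1 alone (score 3.88), and that of Slc6a4, the serotonin transporter, had none in either 5-HT library but 4.80, 6.56 and 3.76 in the DA libraries. The promoters of Tph2, tryptophan hydroxylase (9.91, 7.59, 11.1, 7.09 and 3.59), and Gch1 (6.76, 7.91, 7.62, 5.24 and 3.96) had peaks in all 5 libraries. Gata2 scored 0, 3.11 and 0 in DA and 4.20 and 0 in 5-HT, and Gata3 scored 6.98, 4.52 and 4.65 in DA and 5.13 and 7.51 in 5-HT, the last at percentile 95.5 of its library. An accessible promoter is no measure of transcription. Of 3 GABAergic marker promoters, 2, 3 and 3 had a peak in DA and 3 and 2 in 5-HT, with summed scores of 9.87, 12.55 and 12.1 against 13.3 and 6.60. Of 3 glutamatergic marker promoters, 1, 2 and 2 had a peak in DA and 1 and 0 in 5-HT, Slc17a6 scoring 9.97, 12.9, 12.8, 3.65 and 0. Slc17a7 had no promoter region and so could not have a peak. Among 7 glial, vascular and microglial genes, Gfap, Pecam1, Aif1 and Cx3cr1 had no promoter region. Olig2 scored 0, 4.36, 4.42, 4.73 and 4.27, Cldn5 scored 4.86, 4.94, 5.22, 4.62 and 0, and Aqp4 had peaks in DA replicates 2 and 3 alone (3.88 and 3.48). The summed scores of the 7 were 4.86, 13.2 and 13.1 in DA and 9.36 and 4.27 in 5-HT. At equal numbers of peaks, Gad1, Gad2 and Olig2 had a promoter peak in both 5-HT libraries and no DA library, which was true of 2.30% of protein-coding genes, and Slc17a6, like Th, had one in every DA library and no 5-HT library (0.384%); Slc6a4 then had none. The part that other cell types play in the differences given below was not tested.

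The 46 regions were divided into 7 at promoters of the Nr4a genes themselves, 8 at promoters of neighbouring genes and 31 distal regions. A peak in all 5 libraries was found for 10 of them, against 12.8% of all deposited regions. Both shares pool promoter and distal regions, and the 46 were not matched for their part of promoters. Of distal regions alone, 3 of 13 at Nr4a1, 0 of 9 at Nr4a2 and 1 of 9 at Nr4a3 had all 5 peaks, against 5.55%. Another 6 of the 46 regions, 5 of them distal, had peaks throughout the 3 DA libraries but no peak in 5-HT, and are called DA-only. Over the genome 14.6% of distal regions were DA-only, so that 5 of 31 is close to the background. Only 1 of the 31 distal regions was 5-HT-only, with peaks in the 2 5-HT libraries and none in DA, a pattern seen in 0.434% of distal regions. With equal numbers of peaks 0 of the 31 distal regions were DA-only, against 2.33% of all distal regions, and 19 of the 46 regions still had a peak in some library, as did 30.8% of all regions. A further 13 of the 46 regions had a peak in 1 library only, against 44.5% of all regions, and 10 of the 46 had it in DA replicate 2 only, against 17.4% of all regions. Across all protein-coding genes the median number of DA-only distal regions within 100 kb was 1. Nr4a1 and Nr4a3 had 2 each, a number reached by 40.2% of genes, and Nr4a2 had 1, reached by 65.3% of genes.

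**Figure D1:**
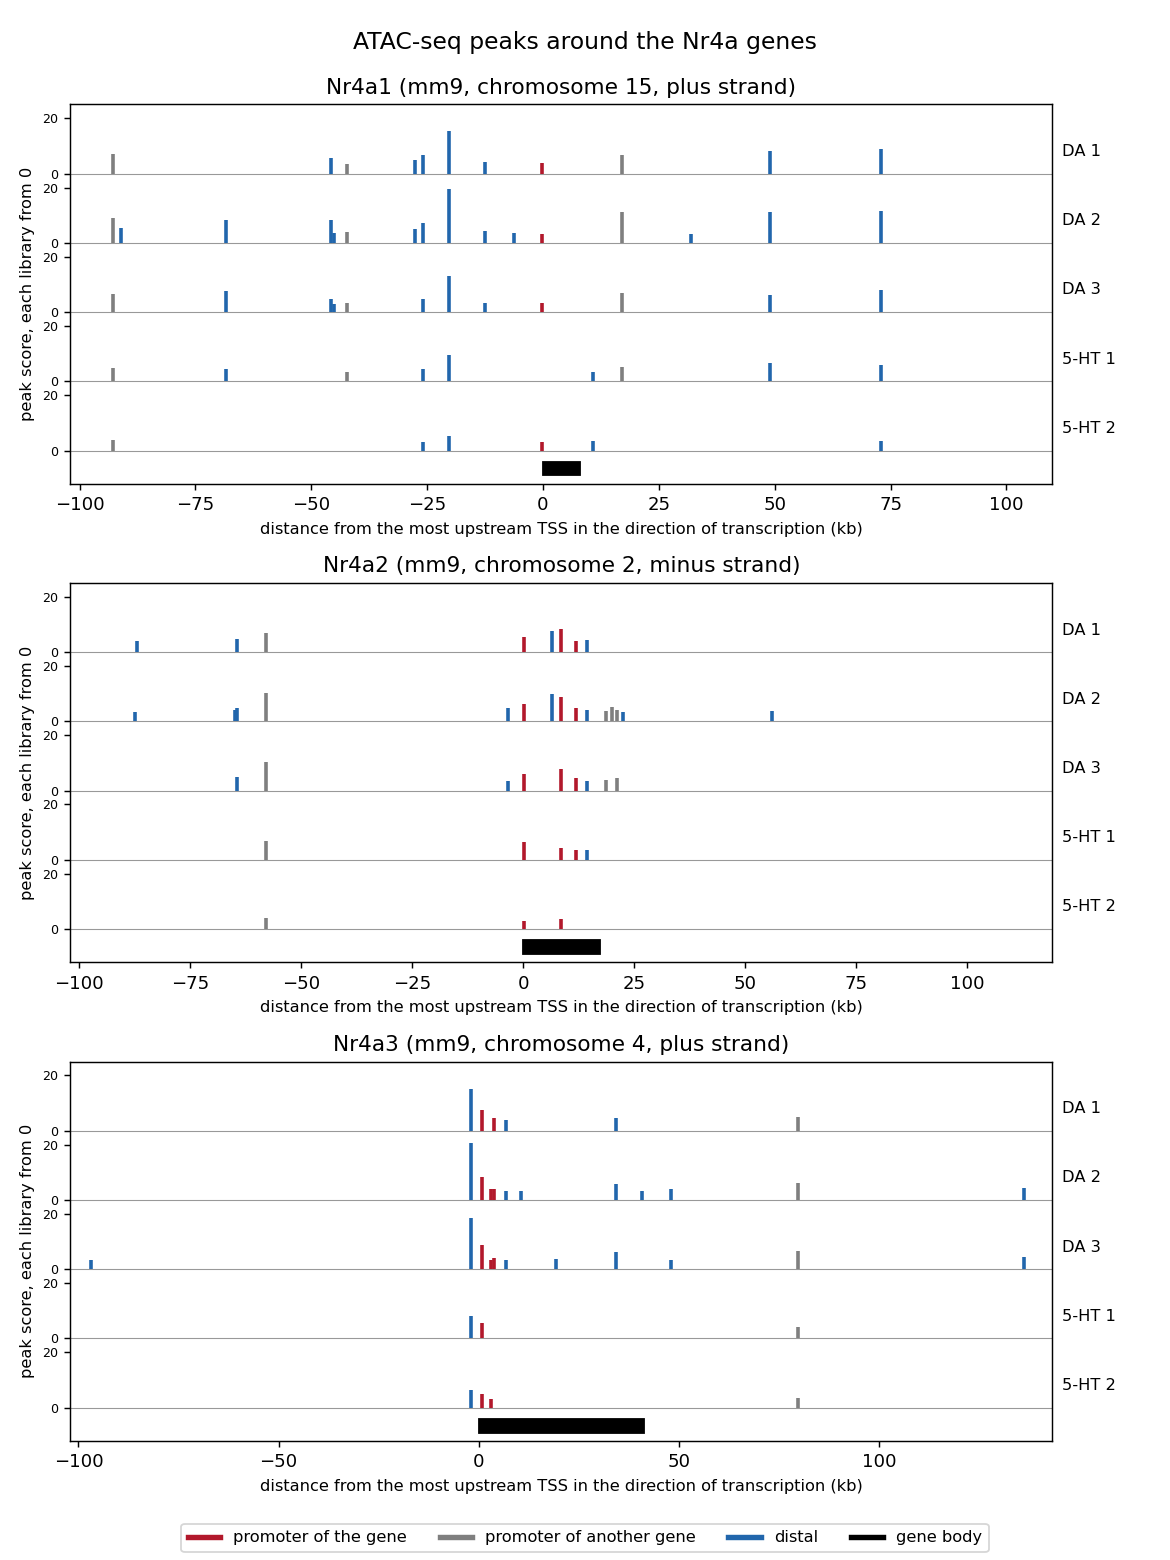
Map of the regions within 100 kb of each Nr4a gene in mm9. Each vertical line stands at the centre of a region and its height is the deposited peak score in that library (unnamed scale, from 0), red for promoters of the gene itself, grey for promoters of other genes and blue for distal regions; the black bar is the gene body. The tallest lines are the distal regions 20.4 kb upstream of Nr4a1 and 1.9 kb upstream of Nr4a3, present in all 5 libraries, while no line at Nr4a2 is taller than 10.2.

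Nr4a1 (ENSMUSG00000023034.6) lies on the plus strand at chr15:101097277-101105223 in mm9, and its window held 17 regions, 1 at its own promoter, 3 at promoters of Acvr1b, of Grasp with A330009N23Rik, and of 9430023L20Rik, and 13 distal. Its promoter was weakly accessible. The only region there, chr15:101096840-101097386, scored 3.75, 3.39 and 3.38 in the DA libraries, 0 in 5-HT replicate 1 and 3.12 in 5-HT replicate 2. These scores stood at percentiles 15.1, 19.2 and 29.1 in DA and 0 and 20.1 in 5-HT, so the groups overlapped, and the difference of 11.1 percentile points gave p = 0.6 in the exact permutation test. Its sign turned to -10.1 points with equal numbers of peaks and to -1.22 points when ranks were taken among promoter peaks only, and it was 1.00 point without 5-HT replicate 1, 21.1 points without 5-HT replicate 2 and 7.08 points without DA replicate 3. With equal numbers of peaks the promoter had a peak in 5-HT replicate 2 alone (percentile 20.1), the library that by construction lost no peaks. The gene body was nearly free of peaks, with 1.38% of its bases in any region.

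The strongest accessibility near Nr4a1 was intergenic. The region chr15:101076553-101077236, centred 20.4 kb upstream of the TSS, scored 15.4, 19.4 and 13.0 in the DA libraries and 9.37 and 5.35 in the 5-HT libraries. It ranked at percentiles 98.4, 99.0, 97.2, 96.5 and 84.2, above the Nr4a1 promoter in every library. Other distal regions with peaks in all 5 libraries were centred 25.9 kb upstream (percentiles 72.6, 79.2, 64.5, 50.8 and 14.2) and 72.8 kb downstream of the TSS (86.3, 93.2, 87.2, 76.6 and 36.2). The region chr15:101146159-101146563, 49.1 kb downstream, had peaks in 4 libraries at percentiles 82.9, 93.0, 78.1 and 82.9 and none in 5-HT replicate 2.

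Both group-specific patterns occurred at this locus. The DA-only distal regions of Nr4a1 were chr15:101051330-101051583, 45.8 kb upstream, with scores of 5.63, 8.41 and 4.76, and chr15:101084403-101085310, 12.4 kb upstream, with 4.27, 4.25 and 3.39. The single 5-HT-only region among the 46 was chr15:101107814-101108487, downstream of the gene and 10.9 kb from its TSS, which scored 3.43 and 3.54 in the 5-HT libraries. Its scores stood at percentiles 11.3 and 43.6, low in 5-HT replicate 1 and below the median of 5-HT replicate 2, and with equal numbers of peaks it kept a peak in 1 library only. At least 1 such region lay within 100 kb of 5.26% of protein-coding genes.

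Nr4a2 (ENSMUSG00000026826.5), on the minus strand at chr2:56959241-56976414, had 16 regions. Of these, 3 were at its own promoters, 4 at promoters of the unnamed locus AL844871.1 and of the long noncoding pair BB557941 and 4930555B11Rik, and 9 were distal. Regions covered 54.3% of its gene body, compared with 1.38% for Nr4a1 and 14.9% for Nr4a3, and 52.1% of the body lay in regions with peaks in the 3 DA libraries while 26.4% lay in regions with peaks in all 5. The bodies differ in length, at 7947, 17174 and 41295 bp for Nr4a1, Nr4a2 and Nr4a3, and 1, 5 and 8 regions overlapped them. The region chr2:56966051-56969736, inside the gene, held 2 of its annotated TSSs. At 3686 bp it was the widest of the 46, wider than or as wide as 99.9% of all regions.

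Of the 3 lead promoter regions, this internal one of Nr4a2 had the widest gap between the groups. It scored 8.45, 8.64 and 7.72 in the DA libraries and 4.22 and 3.63 in the 5-HT libraries, which placed it at percentiles 84.0, 85.6 and 86.4 against 42.4 and 47.7. The mean percentile was 85.3 ± 1.19 (SD, n = 3) in DA and 45.0 ± 3.76 (SD, n = 2) in 5-HT, a difference of 40.3 points without overlap (exact permutation p = 0.2, the smallest possible). The promoter percentile was likewise higher in every DA than in every 5-HT library for 53.1% of genes with a promoter region. With equal numbers of peaks the percentiles were 63.1, 41.5 and 43.7 in DA and 2.31 and 47.7 in 5-HT. The groups then overlapped, although the mean difference kept its sign at 24.5 points (exact permutation p = 0.6). Only 5-HT replicate 1 lay below every DA library, and 5-HT replicate 2 lay above DA replicates 2 and 3.

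The region at the most upstream TSS of Nr4a2, chr2:56975573-56976848, did not follow the internal one. Its scores were 5.35, 6.42 and 6.15 in the DA libraries, 6.49 in 5-HT replicate 1 and 3.07 in 5-HT replicate 2, or percentiles 53.8, 73.4, 77.2, 82.7 and 16.5. The highest and the lowest percentile both came from 5-HT libraries, and the difference between groups of 18.6 points had p = 0.8 in the exact permutation test. In each DA library and in 5-HT replicate 2 the internal region outscored the upstream one, and in 5-HT replicate 1 the upstream region was higher. The remaining promoter region of the gene, chr2:56963441-56965679, scored 3.96, 4.71, 4.52, 3.57 and 0.

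None of the 9 distal regions of Nr4a2 had a peak in all 5 libraries, compared with 3 of 13 for Nr4a1, 1 of 9 for Nr4a3 and 5.55% of all distal regions. The intronic region chr2:56969859-56970236, separated from the wide internal region by a short gap, scored 7.77 and 9.80 in DA replicates 1 and 2 and 0 in the other libraries. Its DA-only distal region, chr2:57040764-57040988, lies 64.5 kb upstream of the TSS and scored 4.90, 5.02 and 5.01 with no peak in 5-HT. Between it and the gene, at chr2:57033833-57034935, the shared promoter of the noncoding genes BB557941 and 4930555B11Rik was accessible in all 5 libraries, with scores of 7.09, 10.1, 10.2, 6.66 and 3.94 and percentiles of 74.5, 90.5, 93.7, 84.2 and 59.1. No promoter region of Nr4a2 itself reached a higher mean percentile.

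Nr4a3 (ENSMUSG00000028341.3), on the plus strand at chr4:48058025-48099319, had 13 regions, 3 at its own promoters, 1 at the promoter of Stx17 and 9 distal. Its main promoter region, chr4:48057154-48060330, was accessible in both cell types. The scores were 7.66, 8.14 and 8.70 in the DA libraries and 5.73 and 4.76 in the 5-HT libraries. Percentiles of 79.0, 83.5 and 90.1 stood against 74.3 and 77.1, a difference of 8.53 points without overlap (exact permutation p = 0.2), but with equal numbers of peaks the difference turned to -18.8 points and with ranks among promoter peaks to -4.23 points. It was 5.57 points without DA replicate 3. The direction between neuron types thus depended, for this promoter, on which peaks were ranked.

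Upstream of it lay the region with the highest mean percentile of all 46, 95.9, ahead of 95.1 for the upstream region of Nr4a1. This order did not hold in every library. The Nr4a1 region ranked higher in DA replicate 1 (98.4 against 98.2) and in 5-HT replicate 1 (96.5 against 92.3), and the Nr4a3 region in the other libraries. The region chr4:48055484-48056730, centred 1.9 kb upstream of the Nr4a3 TSS, scored 15.0, 20.5 and 18.5 in the DA libraries and 7.97 and 6.23 in the 5-HT libraries. It ranked at percentiles 98.2, 99.2 and 99.3 in DA and 92.3 and 90.7 in 5-HT, which was above the promoter region in each library. It is distal only by the 1 kb limit and counts as promoter when the limit is 2 kb.

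Another promoter region inside Nr4a3, chr4:48060705-48061241, scored 0, 3.99 and 3.42 in DA and 0 and 2.94 in 5-HT. All 3 DA-only regions of Nr4a3 were inside the gene. The intronic region chr4:48091802-48092919, 34.3 kb from the TSS, scored 4.68, 5.75 and 6.24 and was the strongest of them. Those at chr4:48064531-48065184 (3.79, 3.39 and 3.44) and, at an annotated internal promoter, chr4:48061583-48061962 (4.43, 4.03 and 4.01) were weaker. With equal numbers of peaks none of these was DA-only, and only the intronic region kept a peak, in 1 library.

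Counted by library, distal peaks were more numerous in DA at all 3 loci. Nr4a1 had 7, 12 and 8 distal peaks in the DA libraries and 6 and 4 in the 5-HT libraries, Nr4a2 had 4, 8 and 3 against 1 and 0, and Nr4a3 had 3, 7 and 7 against 1 and 1. The differences of means, 4, 4.5 and 4.67 peaks, each had p = 0.2 in the exact permutation test. That none of the 3 overlapped has to be read against the 54.3% of all protein-coding genes for which the same was true. Without DA replicate 2 the differences were 2.5, 3 and 4 peaks. With equal numbers of peaks the counts were 5, 6 and 4 against 5 and 4 for Nr4a1, 1, 1 and 0 against 0 and 0 for Nr4a2, and 1, 1 and 2 against 1 and 1 for Nr4a3. All of these overlapped (exact permutation p = 1, 0.6 and 1), where 12.5% of genes did not. The means were still higher in DA at each locus, by 0.5, 0.667 and 0.333 peaks. For Nr4a1 this rested on DA replicate 2 and for Nr4a3 on DA replicate 3. The counts of the other DA libraries there were the same as those of the 5-HT libraries.

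The paralogues were then compared within each library, where the number of peaks is shared. The Nr4a2 promoter stood above that of Nr4a1 in 5 of 5 libraries, by 52.5 percentile points on average (SD 17.4, range 27.5 to 69.0). The Nr4a3 promoter exceeded that of Nr4a1 in 5 of 5 libraries by 64.1 points (SD 6.38, range 57.0 to 74.3). Both had p = 0.063 in the exact two-sided sign-flip permutation test, the smallest value that 5 libraries allow. With Benjamini-Hochberg adjustment over the 3 pairs both of these sign-flip p-values were 0.094. The other p-values of this paragraph are not adjusted. The order of Nr4a3 and Nr4a2 varied: Nr4a3 was higher in 3 of 5 libraries, by 11.6 points on average (SD 17.7), with an exact permutation p = 0.375. The average was 6.52 points without 5-HT replicate 1 and 7.14 points without 5-HT replicate 2. In the DA libraries they differed by no more than a few points in either direction, and in both 5-HT libraries Nr4a3 was higher, by as much as 31.9 points. The order was the same with equal numbers of peaks, at 35.7, 51.4 and 15.8 points (exact permutation p = 0.063, 0.063 and 0.313). Where the most upstream TSS stood for each gene, Nr4a2 exceeded Nr4a1 by 44.0 points with an exact permutation p = 0.125, and was below it in 5-HT replicate 2 (16.5 against 20.1). Nr4a3 then exceeded Nr4a2 by 20.1 points, in 4 of 5 libraries (exact permutation p = 0.125). A peak in all 5 libraries was present at the lead promoter region of Nr4a2 and of Nr4a3, 2 of 3 genes, and at that of 47.2% of all protein-coding genes.

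**Figure D2:**
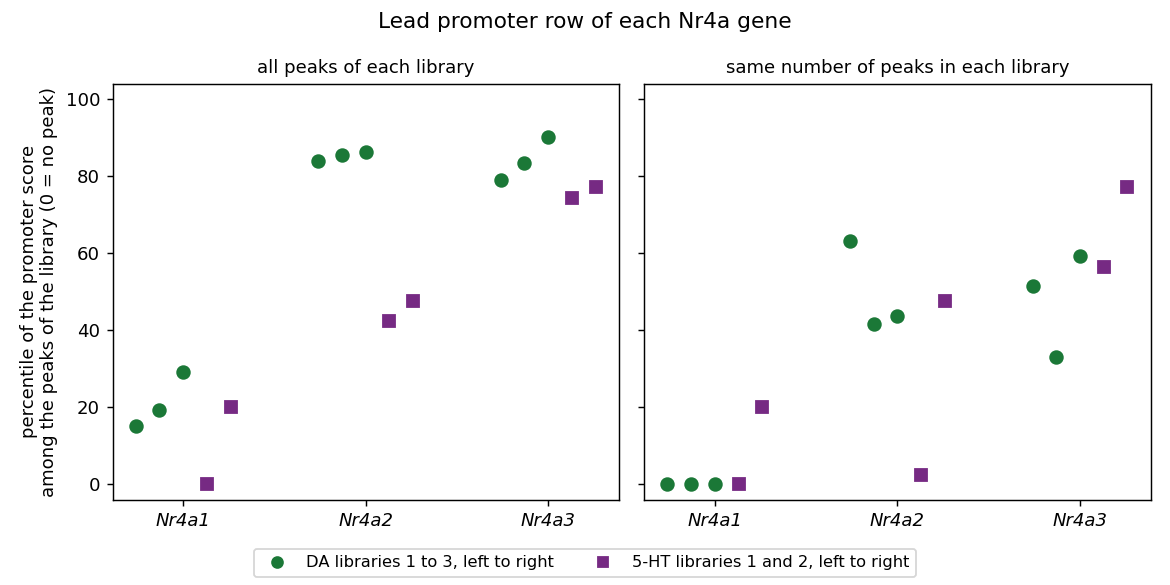
Percentile of the lead promoter region of each Nr4a gene among the peaks of each library (vertical axis, 0 for no peak); green circles are DA libraries 1 to 3 and purple squares are 5-HT libraries 1 and 2. With all peaks (left) Nr4a2 lies between 84.0 and 86.4 in DA and at 42.4 and 47.7 in 5-HT; with equal numbers of peaks (right) the groups overlap for all 3 genes, and Nr4a1 has a peak in 5-HT replicate 2 alone.

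The promoters that resembled each paralogue most, by the mean absolute difference of percentiles over the 5 libraries, were those of Lrrc23, Cd44 and Axl for Nr4a1 (5.22, 5.24 and 5.27 points), of Shmt1, Ubxn8 and Map1lc3a for Nr4a2 (2.17, 2.24 and 2.34 points), and of Psenen, U2af1l4 and Psmc3ip for Nr4a3 (1.33, 1.33 and 1.76 points). Psenen and U2af1l4 share 1 region. In 5-HT replicate 2, Lrrc23 and Cd44 had no promoter peak and Axl stood at percentile 2.42, against 20.1 for Nr4a1.

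Genes that act with the family were described by the same promoter measure. Of 9 calcium- and cAMP-responsive factors known to drive Nr4a genes, 7 had a promoter peak in all 5 libraries, where 47.2% of all protein-coding genes did. Creb1 scored 11.4, 15.5, 12.7, 8.62 and 7.24, and Crtc2, a coactivator of CREB, scored 18.5, 26.0, 20.9, 10.2 and 7.63. Atf1 was DA-only, as were 2.08% of all promoters of protein-coding genes, at 3.91, 4.86 and 3.54, and Mef2c was without a peak in 5-HT replicate 2. Of 15 other immediate early genes, 14 had a promoter peak in all 5 libraries (47.2% of all genes), among them Fos (5.34, 6.97, 6.69, 4.79 and 3.36) and Egr3 (13.5, 18.6, 16.3, 9.84 and 4.02), and Npas4 was DA-only (3.60, 4.54 and 3.58; 2.08% of all genes). Neither Atf1 nor Npas4 had a promoter peak in any library at equal numbers of peaks. Nr4a1, itself an immediate early gene, was not among those with 5 peaks.

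Among 10 partners of Nr4a proteins, 7 had a promoter peak in all 5 libraries, compared with 47.2% of all genes. Of the retinoid X receptors, with which Nr4a1 and Nr4a2 form heterodimers, Rxrb (8.76, 12.7, 9.32, 5.81 and 3.55) and Rxrg (9.51, 13.1, 9.38, 4.29 and 3.03) had 5 peaks, and Rxra had a peak in DA replicate 2 alone (4.15). Rcor1, a subunit of the CoREST corepressor that Nr4a2 recruits, scored 11.6, 13.2, 10.3, 9.16 and 7.59. Among 8 genes known to be regulated by Nr4a2 in midbrain dopaminergic neurons, 2 had a promoter peak in all 5 libraries, namely Ddc (6.27, 6.46, 7.91, 4.09 and 3.08) and Ret (5.16, 5.45, 4.23, 3.96 and 3.24). The promoter of Th was DA-only. Slc6a3, the dopamine transporter, scored 6.92, 4.80, 4.46, 3.43 and 0, and Slc18a2, the vesicular monoamine transporter, 4.71, 6.85, 4.78, 0 and 3.08. Vip had no promoter region and so could not have a peak. All 3 DA libraries had a peak at 7 of these 8 promoters, compared with 57.8% of all protein-coding genes, and both 5-HT libraries at 2, compared with 47.5%. Of 10 transcription factors of the dopaminergic lineage, 7 had a promoter peak in all 5 libraries (47.2% of all genes) and Lmx1a was DA-only (5.00, 5.62 and 4.09), though without a peak in any library at equal numbers of peaks, where Th was still DA-only. Peaks in all 5 libraries were left, at equal numbers of peaks, at the promoters of 7 of the 9 responsive factors, 6 of the 15 immediate early genes, 7 of the 10 partners, 0 of the 8 genes regulated by Nr4a2 and 3 of the 10 lineage factors, against 36.8% of all genes. With all peaks and libraries, the median number of DA-only distal regions within 100 kb of the lineage factors was 7, with 10 at En1 and at Lmx1a. Across all protein-coding genes the median was 1. No Nr4a gene had more than 2, a number reached by 40.2% of genes. The windows of the lineage factors held 15 (Pitx3) to 53 (Lmx1a) regions, against 17, 16 and 13 for Nr4a1, Nr4a2 and Nr4a3. This comparison was not made at equal numbers of peaks.

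The promoter sequences at the most upstream TSS are shown because the 3 genes share a feature there. They are read 5′ to 3′ on the strand of the gene from the mm9 genome, from 250 bases before the most upstream protein-coding TSS to 50 bases from it on, and each window lies wholly inside a promoter region given above. Capitals mark TGACG, part of the cAMP response element, or its reverse complement CGTCA. Nr4a1 is at chr15:101097027-101097326 (plus strand), Nr4a2 at chr2:56976365-56976664 (minus strand) and Nr4a3 at chr4:48057775-48058074 (plus strand).
Nr4a1: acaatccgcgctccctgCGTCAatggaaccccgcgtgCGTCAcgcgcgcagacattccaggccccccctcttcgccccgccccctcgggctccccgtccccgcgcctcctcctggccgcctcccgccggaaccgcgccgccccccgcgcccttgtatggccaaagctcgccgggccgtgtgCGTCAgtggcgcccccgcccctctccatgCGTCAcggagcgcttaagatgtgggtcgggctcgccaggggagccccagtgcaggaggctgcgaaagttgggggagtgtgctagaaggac
Nr4a2: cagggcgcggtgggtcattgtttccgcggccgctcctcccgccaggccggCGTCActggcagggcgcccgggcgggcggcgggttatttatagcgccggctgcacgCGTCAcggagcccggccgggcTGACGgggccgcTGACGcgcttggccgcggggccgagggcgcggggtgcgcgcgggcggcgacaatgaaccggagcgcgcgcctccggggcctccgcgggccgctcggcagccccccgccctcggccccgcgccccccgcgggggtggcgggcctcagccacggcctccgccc
Nr4a3: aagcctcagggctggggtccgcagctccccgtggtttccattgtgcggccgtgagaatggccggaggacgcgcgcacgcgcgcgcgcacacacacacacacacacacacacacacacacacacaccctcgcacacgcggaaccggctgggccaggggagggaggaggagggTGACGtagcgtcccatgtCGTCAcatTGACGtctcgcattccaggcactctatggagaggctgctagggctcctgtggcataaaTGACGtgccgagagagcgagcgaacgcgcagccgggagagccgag
Each of the 3 windows held 4 such words, counted on both strands. The central 300 bases of the lead promoter regions held 4 for Nr4a1, 0 for Nr4a2 and 0 for Nr4a3. Of the 22359 protein-coding promoters read in the same way, 23.3% held at least 1 and 0.367%, the 3 included, held 4 or more. The word contains a CpG, and these shares were not matched for the CpG content given below. The full palindrome TGACGTCA, which contains the shorter word on each strand, was in none of the 3 and in 2.35% of promoters. The first base of the words stood at -233, -213, -69 and -40 from the TSS in Nr4a1, at -200, -144, -123 and -111 in Nr4a2 and at -79, -61, -53 and 5 in Nr4a3. The MEF2 core TATTTATA was in the window of Nr4a2 and in 1.68% of promoters; it was also in the central 300 bases of the Nr4a1 promoter region, outside the window printed. The SOX word ACAATG was found 2 times in the window of Nr4a2, as many or more being held by 0.939% of promoters, and 1 time in that of Nr4a3 (10.6%). Neither AAAGGTCA, the NBRE, nor its core AAGGTCA was in any of the 3, against 1.21% and 3.90% of promoters. The windows were rich in G and C, at 72.3%, 81.7% and 65.0% for Nr4a1, Nr4a2 and Nr4a3 compared with a median of 55.3%. They held 35, 52 and 30 CpG dinucleotides compared with a median of 12, and 8.22%, 0.698% and 14.0% of promoters held as many or more. RefSeq promoter entries (GRCm38.p6) were at hand for all 3 genes, and a search of mm9 for their sequences placed those of Nr4a1 and Nr4a2 on the windows printed here and that of Nr4a3 at chr4:48057927-48058226. A match of letters describes the sequence and is not evidence of binding.

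The distal regions with the highest mean percentile at each locus, and the single 5-HT-only region, are printed on the plus strand of mm9, at most the central 300 bases. Capitals mark any of the words searched on both strands, which were the NBRE, its core (contained in it), the TGACG word, the MEF2 core, the AP-1 word TGANTCA, the SOX words ACAAAG and, differing in its end, ACAATG, the forkhead word TGTTTAC, the homeodomain word TAATTA, the GATA word AGATAA, and the E-box words CAGCTG and, as a variant, CAGATG. The stretches are chr15:101076744-101077043, 20.4 kb upstream of Nr4a1 and intergenic; chr2:57040764-57040988, the whole DA-only region upstream of Nr4a2, intergenic; chr4:48055957-48056256, 1.9 kb upstream of Nr4a3, intergenic; and chr15:101108000-101108299, the 5-HT-only region downstream of Nr4a1, intergenic.
Nr4a1 upstream: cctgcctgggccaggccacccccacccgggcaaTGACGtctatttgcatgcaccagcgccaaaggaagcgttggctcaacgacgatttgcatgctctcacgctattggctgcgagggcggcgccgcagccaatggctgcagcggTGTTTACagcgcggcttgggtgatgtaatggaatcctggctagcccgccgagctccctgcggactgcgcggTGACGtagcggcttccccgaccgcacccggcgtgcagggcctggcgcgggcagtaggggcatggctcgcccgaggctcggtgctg
Nr4a2 upstream: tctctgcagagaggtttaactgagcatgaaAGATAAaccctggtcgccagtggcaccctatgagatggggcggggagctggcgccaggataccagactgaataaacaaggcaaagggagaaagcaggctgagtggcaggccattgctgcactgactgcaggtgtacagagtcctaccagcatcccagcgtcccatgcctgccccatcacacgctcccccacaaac
Nr4a3 upstream: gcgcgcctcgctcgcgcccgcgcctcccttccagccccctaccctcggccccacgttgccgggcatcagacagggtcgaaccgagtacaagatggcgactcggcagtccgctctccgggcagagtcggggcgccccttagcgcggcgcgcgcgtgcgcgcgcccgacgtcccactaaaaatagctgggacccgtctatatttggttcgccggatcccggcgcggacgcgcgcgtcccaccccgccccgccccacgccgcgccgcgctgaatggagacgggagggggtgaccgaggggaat
Nr4a1 5-HT-only: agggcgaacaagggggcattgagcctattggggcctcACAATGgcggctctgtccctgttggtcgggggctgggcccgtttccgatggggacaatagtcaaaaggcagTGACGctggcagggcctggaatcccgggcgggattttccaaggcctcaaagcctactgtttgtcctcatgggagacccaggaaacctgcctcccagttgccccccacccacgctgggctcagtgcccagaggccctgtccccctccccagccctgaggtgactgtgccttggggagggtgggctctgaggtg
The region upstream of Nr4a1 held 2 TGACG words and 1 forkhead word, the DA-only region of Nr4a2 held 1 GATA word, that upstream of Nr4a3 held none of the words, and the 5-HT-only region held 1 TGACG and 1 ACAATG word. Over the central 300 bases of the 31 distal regions, TGACG was found in 5, against 11.3% of all 114058 distal regions. The NBRE was found in 0 and its core in 1, against 2.94% and 6.52%. The homeodomain word was in 5 (10.3% of all distal regions), the forkhead word in 1 (6.06%), the GATA word in 3 (15.2%), the AP-1 word in 4 (9.80%), CAGCTG in 7 (26.6%), CAGATG in 5 (29.0%), ACAAAG in 5 (26.7%), ACAATG in 7 (16.6%) and the MEF2 word in 0 (1.57%). The full palindrome TGACGTCA was in 1 distal region, 31.8 kb downstream of the Nr4a1 TSS, and in 0.315% of all distal regions; that region had a peak in DA replicate 2 alone.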

How the data were processed

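ATAC-seq was analysed in 3 DA and 2 5-HT libraries. Per the methods of the study, the authors used Trimmomatic for quality control and Bowtie2 for alignment to mm9, discarded duplicates (Picard), ran MACS2 callpeak on each library and merged peaks under 100 bp apart. The deposited set of 131942 regions still holds 877 neighbouring pairs under 100 bp apart, which were kept as deposited; versions and the peak threshold were not given in the sources used here. The deposited value is a score per region and library, of unnamed scale, 0 without a peak. The other value columns of the peak lists held a placeholder and were not used, and the chromosome of 1 line, misspelled, was taken as Y. The members, gene lists, motifs and tests were chosen with earlier results of these data known. Regions were joined to GENCODE M1 genes (mm9) by overlaps of 1 bp or more. The lead promoter region overlapped the promoters of most protein-coding TSSs of a gene, ties going to the wider one. Regions named in the text are those at promoters of the Nr4a genes, the group-specific ones and those with the highest percentiles; others were added after their values were seen. No other 2 libraries than DA replicates 1 and 2 shared an identical score, and they shared 1. Exact permutation tests were enumerated in full and checked on simulated data (Python 3.11.15, NumPy 2.4.6, pandas 2.3.3). Embryos were pooled, so p-values measure the spread between libraries only. Windows, promoter limits, peak numbers, left-out libraries and a replicate block were varied.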

Additional observations from a re-analysis of the deposited data

How the results depend on the processing

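Of 189 alternative values, 166 were differences that kept their direction and side of the threshold, though not always their size, or counts within 1.5 times of the reported one; 19 counts moved by more and 4 differences reversed. With windows of 200 kb the regions per gene were 32, 28 and 21 for Nr4a1, Nr4a2 and Nr4a3, and the DA-only distal regions were 7 for Nr4a1 and 2 for Nr4a2. With windows of 50 kb Nr4a1 had 2 regions with peaks in all 5 libraries and Nr4a2 had 0 DA-only distal regions. The differences in distal peaks between DA and 5-HT were 11, 6.17 and 6.83 for Nr4a1, Nr4a2 and Nr4a3 with windows of 200 kb. With windows of 50 kb they were 3.5, 2.5 and 3.67. With equal numbers of peaks the DA-only distal regions were 0, 0 and 0. With the lowest-scoring 25% of peaks left out they were 2 for Nr4a2 and 1 for Nr4a3, and with promoters from 2 kb upstream to 500 bp downstream 1 for Nr4a3. Leaving out 1 library at a time gave 1 to 2 DA-only distal regions for Nr4a2 (2 without DA replicate 1, DA replicate 3 or 5-HT replicate 1) and 2 to 4 for Nr4a3 (4 without DA replicate 1), and 4 to 7 regions with peaks in all libraries for Nr4a1 and 3 to 5 for Nr4a2 (7 and 5 without 5-HT replicate 2, the library with fewest peaks). The promoter difference between DA and 5-HT reversed for Nr4a1 (-1.22 points among promoter peaks, -10.1 at equal numbers of peaks) and Nr4a3 (-4.23 and -18.8 points); for Nr4a2 it was 30.5 and 24.5 points. The cause of these shifts was not tested, other than that fewer libraries or peaks enter by construction. Percentiles at equal numbers of peaks, regions at the most upstream TSS and promoters of protein-coding transcripts alone were chosen after seeing the data. The replicate numbers are shared between the groups by number only. With them as a replicate block, over 2 pairs, the promoter differences were 7.08, 39.8 and 5.57 points and those of distal peaks 4.5, 5.5 and 4, with exact permutation p no lower than 0.5, the smallest that 2 pairs allow; the block changed no call. No test here can reach 0.05, so none of the p-values speaks for or against a stable difference. Read depth, which is unknown, limits what a missing peak means.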
